A study of Rattus norvegicus with 4 samples.

Results

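Transcripts of the insulin-like growth factor Igf1, of its receptor Igf1r and of the binding proteins Igfbp1 to Igfbp7 were examined in the carotid body (CB) of neonatal and adult rats. The CB lies where the common carotid artery divides, and its glomus cells respond to low oxygen in arterial blood. The 9 genes were chosen by symbol from the 32883 genes listed, and each matched 1 entry. None had fractional counts, which reads split with another copy usually give. Whole counts do not exclude that shared reads were assigned to a single copy. Of the 9, 8 passed the filter on low counts and were tested among 13843 genes.

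Neonates were Sprague-Dawley pups of day 5 and adults were Sprague-Dawley rats of day 21, born to purchased pregnant dams on a standard diet, with no treatment at either age and both sexes included. By the design text in GEO, each library was made from the CBs of 6 pups or 3 adults. There were 2 libraries for each age. The published methods give other pool sizes and a further replicate per age, so the pool sizes are uncertain. Each library is thus an average over animals and over all cell types of the organ, and nothing given here shows whether pools of an age came from different litters. The published methods state that part of the litter was kept to day 21, so pools of the 2 ages may share litters. In such bulk tissue, fewer cells of a type and less RNA per cell cannot be told apart.

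In the IGF system, Igf1 and Igf2 are secreted ligands that activate the receptor tyrosine kinase encoded by Igf1r, while Igf2r mainly removes Igf2. The products of Igfbp1 to Igfbp6 bind the ligands with high affinity and hold them in blood or matrix, Igfbp7 binds them weakly, and proteases release the ligands by cutting the binding proteins. Igf2 is known as the main ligand of fetal growth, and Igf1 as the ligand through which growth hormone acts after birth.

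Libraries held 39476110 and 38506468 estimated counts in neonates and 37778975 and 36286191 in adults. Levels are given as CPM, the counts of a gene over the total of its library in the usual scaling, and 3 counts, taken as the floor of detection, equalled 0.0760 to 0.0827 CPM. Floors cover counting error only. Differences between ages are log2 fold changes of neonates over adults from edgeR after TMM scaling, a positive value meaning a higher level in neonates, and p are adjusted over all genes tested. TMM factors were 0.902 and 0.935 in neonates and 1.08 and 1.0965 in adults, and without them the median over all genes tested moved by -0.25 on the log2 scale. Fold changes after TMM are therefore changes relative to the bulk of genes. With 2 libraries an age, a permutation of the libraries can give no p under 0.333 for a single gene, so no such test was used. Levels are otherwise not compared between genes, since transcript lengths were not used here. The most abundant gene of a marker list is named by CPM alone, which also depends on transcript length.

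Neonate replicate 1 stood apart from neonate replicate 2 in a tissue marker. Pth, which encodes parathyroid hormone, had 1595 and 194 CPM in these libraries and 0 counts in both adult libraries. Values without neonate replicate 1 are given beside each of the 9 genes whose call they change. Markers of glomus cells were present in all 4 libraries. Th, the rate-limiting enzyme of catecholamine synthesis, had 917 and 781 CPM in neonates and 1517 and 1242 CPM in adults.

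Among the 8 genes tested, transcripts of the receptor rose between the ages while those of its ligand Igf1 did not pass the test, and the binding proteins parted in both directions. Igf1r was 4.24-fold higher in adults and Igfbp5 2.24-fold higher. Igfbp6, Igfbp3 and Igfbp4 were higher in adults by less than 2-fold. Igfbp2 was 10.97-fold higher in neonates, and Igfbp7 was 1.23-fold higher in neonates. In edgeR, 7 of the 8 (87.5%) passed an adjusted p of 0.05, where 62.3% of all genes tested did. Of these, 5 were higher in adults and 2 in neonates, which is 62.5% and 25.0% of the 8, against 31.1% and 31.2% of all genes. A fold change of at least 2 in addition was reached by 3 of the 8 (37.5%), against 20.8% of all genes. Toward neonates this was 1 gene, where 7.68% of all genes were, and toward adults 2 genes, where 13.2% were. The 8 are few, and Igfbp2 passed the filter on low counts only through the neonatal libraries, so these shares are a description. The libraries of the ages did not overlap in any of the 8 genes after TMM scaling, nor in 83.0% of all genes tested. By CPM alone Igf1 and Igfbp7 overlapped.

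**Figure D1:**
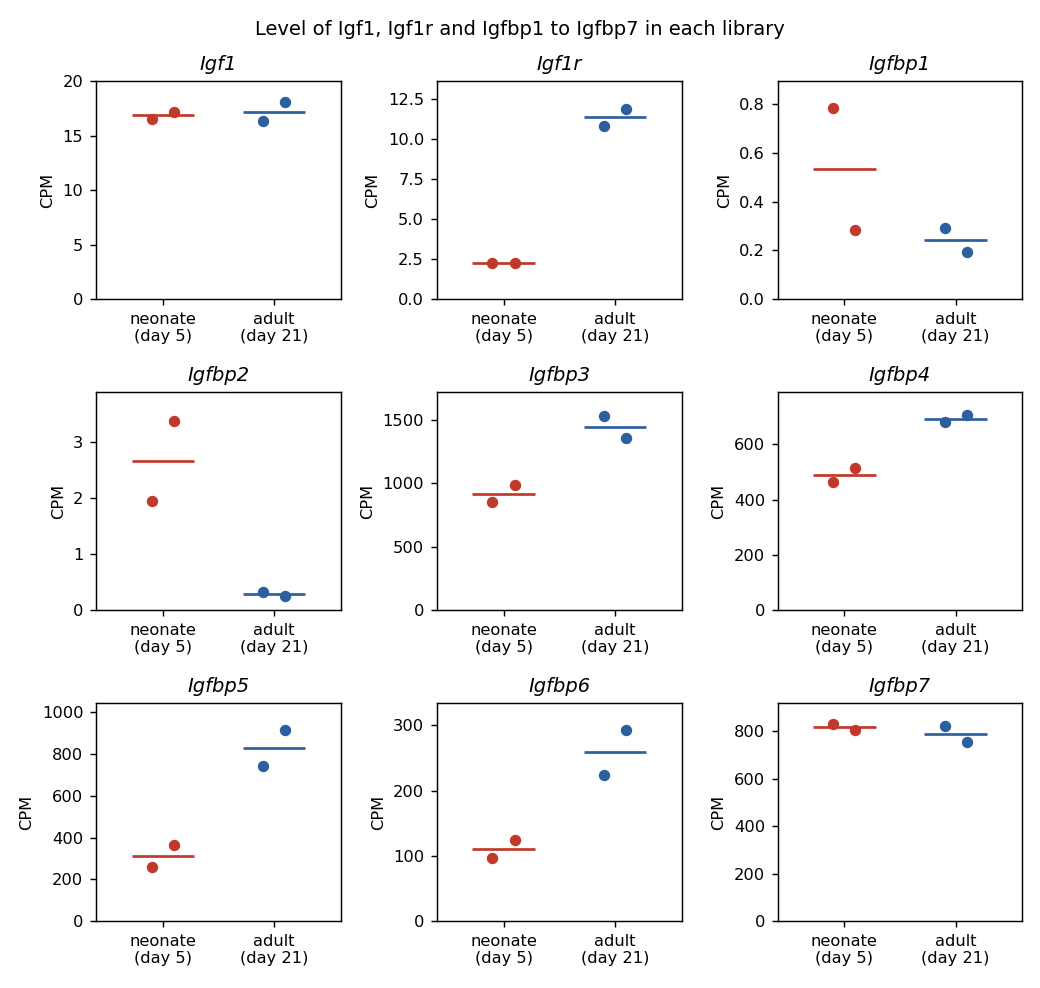
Level of each gene in CPM (vertical axis, from 0, its own scale in each panel) in the 2 neonatal (red) and 2 adult (blue) libraries, with points for libraries and lines for their mean. Igf1 lay between 16.3 and 18.1 CPM in all 4 libraries, while Igf1r lay near 2.2 CPM in both neonatal libraries and at 10.8 and 11.9 CPM in the adult ones.

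Igf1 (ENSRNOG00000004517) had 654 and 662 counts in neonates and 616 and 657 counts in adults. These are levels of 16.6 and 17.2 CPM in neonates and 16.3 and 18.1 CPM in adults. The ages overlapped by CPM, with the lowest and the highest level both in adults. Its log2 fold change was 0.22 (standard error 0.12, 95% interval -0.057 to 0.49, edgeR adjusted p = 0.15), and it changed sign to -0.027 (edgeR adjusted p = 0.86) when libraries were scaled to their size alone. The interval covers fold changes from 0.961 to 1.41, so a doubling of Igf1 in either direction lies outside it. Markers of hepatocytes, the main source of Igf1 in blood, were low in every library. Their summed level over 5 genes was 2.03 and 2.80 CPM in neonates and 1.46 and 1.43 CPM in adults, Alb was at most 0.493 CPM, and Apoa1 was the most abundant of them. Apoa1, the only 1 of the 5 to be tested, was higher in neonates (1.72, edgeR adjusted p = 0.0086), with 1.22 and 1.58 CPM against 0.371 and 0.634 CPM, so that it passed the filter on low counts only through the neonatal libraries. The part of such cells in the level of Igf1 was not tested.

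Igf1r (ENSRNOG00000014187) had 88 counts in each neonatal library and 409 and 432 counts in the adult ones. Its levels were 2.23 and 2.29 CPM in neonates against 10.8 and 11.9 CPM in adults. Both adult libraries lay far above both neonatal ones, and the libraries of an age lay close together. The log2 fold change was -2.08 (standard error 0.22, 95% interval -2.59 to -1.58, edgeR adjusted p = 6.6e-05). Over all alternatives it ran from -2.33 to -2.02, with an adjusted p of at most 0.00054. Strand was not stated for the counting, so reads of a transcript antisense to Igf1r would be counted with it.

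The genes whose profile over the 4 libraries was closest to that of each of these genes were found by the root mean square difference of log2 CPM around the gene's mean. For Igf1 they included Smtn (0.013) and Anxa5 (0.013). For Igf1r they were Scarb2 (0.026), the unnamed entry AABR07028615.1 (0.030) and Lrp6 (0.031), a co-receptor of Wnt ligands. Lrp6 had 8.94 and 9.25 CPM in neonates and 43.7 and 49.9 CPM in adults. With 4 libraries, such likeness rests for Igf1r on the difference between ages and on little else. For Igf1, whose ages overlapped by CPM, it rests on small differences among the 4 libraries.

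Igfbp2 (ENSRNOG00000016957), a binding protein known for high levels in fetal tissues, was the member with the largest difference toward neonates. It had 77 and 130 counts in neonates and 12 and 9 counts in adults. The levels were 1.95 and 3.38 CPM in neonates and 0.318 and 0.248 CPM in adults. The 2 neonatal values were 1.73-fold apart, and both lay well above the adult ones. Its log2 fold change was 3.46 (standard error 0.46, 95% interval 2.41 to 4.50, edgeR adjusted p = 0.00022), and it was 3.78 without neonate replicate 1 and 3.05 without neonate replicate 2.

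Igfbp5 (ENSRNOG00000017206), which binds to extracellular matrix as well as to IGFs, went the other way. It had 10258 and 14092 counts in neonates and 28103 and 33146 counts in adults, or 260 and 366 CPM against 744 and 913 CPM. All adult values lay above all neonatal ones, and libraries of an age differed by up to 1.41-fold. The log2 fold change was -1.16 (standard error 0.15, 95% interval -1.503 to -0.82, edgeR adjusted p = 0.00019). Without neonate replicate 1 it was -0.96, short of 2-fold.

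In the gene order of the RefSeq table, Igfbp2 and Igfbp5 are direct neighbours on chromosome 9, on opposite strands and with their 3′ ends toward each other. Igfbp1 and Igfbp3 are direct neighbours in the same way on chromosome 14. The 250 bases before the RefSeq start of Igfbp2 and Igfbp5 are shown because these neighbours moved in opposite directions. They come from RefSeq on the build GRCr8, which is not the build used for mapping, with Igfbp2 on the plus strand at chr9:81864561-81864810 and Igfbp5 on the minus strand at chr9:81914188-81914437. Capitals mark matches on either strand to TATAAA, the TATA box, to GGGCGG, the GC box, and to CACGTG, an E-box, none of which overlap.
Igfbp2: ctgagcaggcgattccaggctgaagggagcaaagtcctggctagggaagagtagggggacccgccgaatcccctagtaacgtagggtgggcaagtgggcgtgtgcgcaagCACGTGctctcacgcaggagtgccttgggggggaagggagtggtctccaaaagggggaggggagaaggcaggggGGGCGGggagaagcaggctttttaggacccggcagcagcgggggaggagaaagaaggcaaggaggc
Igfbp5: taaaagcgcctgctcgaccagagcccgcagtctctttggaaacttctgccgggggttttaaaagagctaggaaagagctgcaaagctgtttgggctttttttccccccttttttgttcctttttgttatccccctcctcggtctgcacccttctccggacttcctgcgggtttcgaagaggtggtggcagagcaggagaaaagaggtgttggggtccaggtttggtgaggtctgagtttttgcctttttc

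The Igfbp2 sequence holds 1 GC box, beginning 66 bases before the start, and 1 E-box, beginning 140 bases before it. The Igfbp5 sequence holds no match to these letters. Of 33469 windows of this length before RefSeq starts, 12.9% hold the TATA box, 30.5% the GC box and 5.59% the E-box. GC content was 64.0% for Igfbp2 and 51.6% for Igfbp5, against a median of 51.2% over all windows. The window before Igf1r had a GC content of 79.6% and 45 CpG, more than 99.6% of windows, with 1 GC box and 1 E-box. Of the other members, Igfbp4 has a TATA box beginning 40 bases before its start and Igfbp7 has 4 GC boxes. Such matches describe the letters of the sequence and not the binding of a factor.

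Igfbp6 (ENSRNOG00000010977), which prefers Igf2 over Igf1, had 3859 and 4794 counts in neonates and 8494 and 10660 counts in adults. Its levels were 97.8 and 124 CPM in neonates and 225 and 294 CPM in adults. The ages were well apart, with libraries of an age differing by up to 1.31-fold. The log2 fold change was -0.98 (standard error 0.13, 95% interval -1.28 to -0.67, edgeR adjusted p = 0.00026), a 1.97-fold higher level in adults. It passed 2-fold under some alternatives, among them scaling to library size alone (-1.22), without neonate replicate 2 (-1.13) and without adult replicate 1 (-1.15). It was smaller without neonate replicate 1 (-0.84) and without adult replicate 2 (-0.78).

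Igfbp3 (ENSRNOG00000061910), the main carrier of IGFs in blood, had 33603 and 37881 counts in neonates and 57672 and 49257 counts in adults. The levels were 851 and 984 CPM in neonates and 1527 and 1357 CPM in adults. The adult libraries lay above the neonatal ones by more than the libraries of an age differed. The log2 fold change was -0.41 (standard error 0.11, edgeR adjusted p = 0.0087), and the call was kept narrowly without neonate replicate 1 (-0.33, adjusted p = 0.0490) and without adult replicate 1 (-0.31, adjusted p = 0.0498).

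Igfbp4 (ENSRNOG00000010635), the substrate of the protease Pappa, had 464 and 516 CPM in neonates and 680 and 704 CPM in adults. The ages did not overlap, but after TMM scaling the difference was small. Its log2 fold change was -0.25 (standard error 0.087, edgeR adjusted p = 0.029). The call was lost without neonate replicate 1 (-0.20, adjusted p = 0.15), without adult replicate 1 (-0.27, adjusted p = 0.063) and without adult replicate 2 (-0.24, adjusted p = 0.093), while scaling to library size alone gave -0.50 (adjusted p = 0.0020).

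Igfbp7 (ENSRNOG00000002050), a secreted protein of vessels and other tissues, had 831 and 807 CPM in neonates and 824 and 757 CPM in adults. By CPM the ages overlapped, and the order of the libraries parted the ages only after TMM scaling. The log2 fold change was 0.30 (standard error 0.095, edgeR adjusted p = 0.023). It did not pass with libraries scaled to their size alone (0.051, adjusted p = 0.66), without neonate replicate 1 (0.25, adjusted p = 0.095) or without adult replicate 2 (0.23, adjusted p = 0.13).

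Igfbp1 (ENSRNOG00000058780), a product mostly of liver that insulin lowers, was the member not tested. It had 31 and 11 counts in neonates and 11 and 7 counts in adults, or 0.785 and 0.286 CPM against 0.291 and 0.193 CPM. All of these lay above the floor and under the minimum of 1 CPM, and the ages overlapped by CPM. With no filter on low counts its log2 fold change was 1.36 (standard error 0.86, edgeR adjusted p = 0.24).

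**Figure D2:**
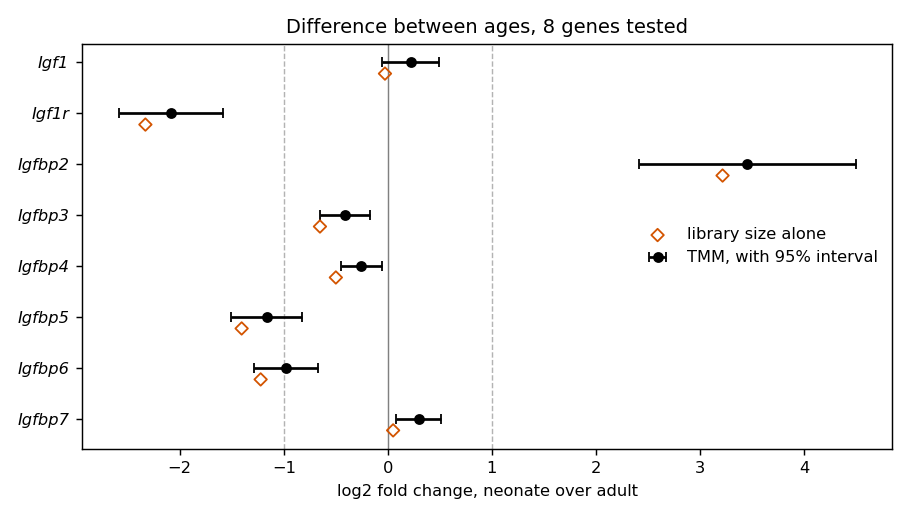
Log2 fold change of neonates over adults (horizontal axis) for the 8 genes tested, after TMM scaling (black points, bars are 95% intervals) and with libraries scaled to their size alone (orange diamonds), with dashed lines at 2-fold. Igfbp2 lies at 3.46 and Igf1r at -2.08, and scaling to library size alone moves every gene toward adults and takes Igf1 from 0.22 to -0.027.

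Together the 7 Igfbp genes took 0.251% and 0.28003% of all counts in neonates and 0.39999% and 0.403% in adults. Within that total, the share of Igfbp5 was 10.4% and 13.1% in neonates and 18.6% and 22.7% in adults. The share of Igfbp7 was 33.2% and 28.8% in neonates and 20.6% and 18.8% in adults. Igfbp3 held 34.0% and 35.1% in neonates and 38.2% and 33.7% in adults, with the ages overlapping. Shares of counts weight long transcripts more, so each is compared across libraries only.

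The summed levels of connective tissue and of vessel wall markers were higher in adults, as Igfbp3, Igfbp4, Igfbp5 and Igfbp6 were and Igfbp2 and Igfbp7 were not. The counts of called markers here and for the cell types that follow stand beside 31.1% of all genes higher in adults and 31.2% higher in neonates. Of 9 fibroblast and matrix genes tested, 6 were higher in adults, 0 in neonates and 3 did not pass the test. Their summed level was 11968 and 14822 CPM in neonates and 18619 and 20946 CPM in adults, with Col3a1 the most abundant at 6088 and 7437 against 9053 and 10684 CPM. On the TMM scale of the calls, the sums were 13272 and 15846 CPM in neonates and 17220 and 19103 CPM in adults. Col3a1 (-0.30, edgeR adjusted p = 0.071) and Col1a1 (-0.13, edgeR adjusted p = 0.38), which hold most of the sum, did not pass. Of 10 smooth muscle and pericyte genes, 7 were higher in adults, 1 in neonates and 2 did not pass. Their sum was 1305 and 1393 CPM in neonates and 2472 and 2691 CPM in adults, led by Rgs5 at 272 and 247 against 1088 and 1062 CPM. Without Rgs5 the sums were 1033 and 1146 CPM in neonates and 1384 and 1629 CPM in adults. With Rgs5 and TMM scaling they were 1447 and 1490 CPM against 2286 and 2455 CPM. No gene of either list was at or under the floor in all 4 libraries. By CPM, the sums of both lists, Igfbp5 and Igfbp6 had the same order of the 4 libraries, with neonate replicate 1 lowest and adult replicate 2 highest. Igf1r, Igfbp4 and the sums of glial and endothelial markers had that order too, so it is not particular to these lists. The share of all genes with this order was not counted. The part of these cells in the differences of Igfbp5 and Igfbp6 was not tested.

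**Figure D3:**
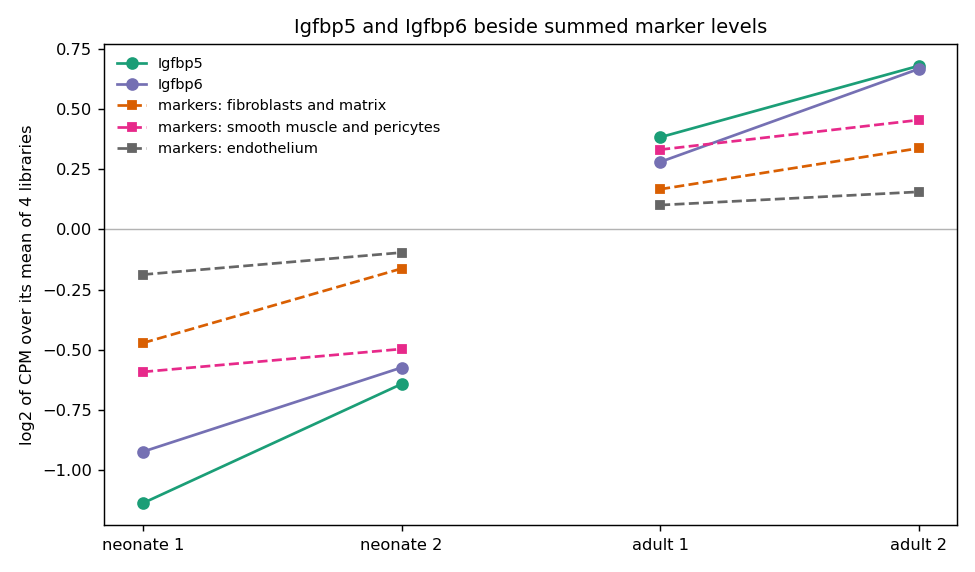
Log2 of the CPM in each library over its mean of the 4 libraries (vertical axis) for Igfbp5 and Igfbp6 (solid lines) and for the summed markers of fibroblasts, smooth muscle and endothelium (dashed lines), with lines joining libraries of an age. All 5 measures are lowest in neonate replicate 1 and highest in adult replicate 2, and Igfbp5 spans the widest range, from 260 to 913 CPM.

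Endothelial markers, of cells known to make Igfbp3 and Igfbp7, went both ways. Of 9 tested, 4 were higher in adults, 2 in neonates and 3 did not pass. Their sum was 1227 and 1307 CPM in neonates and 1498 and 1556 CPM in adults, and the most abundant, Cdh5, had 230 and 223 against 237 and 236 CPM. After TMM scaling, which the calls use, the sums were 1361 and 1398 CPM in neonates and 1386 and 1420 CPM in adults, so that the ages overlapped. Of 10 macrophage markers, 8 were higher in adults, 1 in neonates and 1 did not pass, with sums of 152 and 169 CPM in neonates and 436 and 417 CPM in adults and Lyz2 the most abundant. Macrophages are a known local source of Igf1, and their part in its level was not tested. Of 12 glomus cell markers, 3 were higher in adults, 4 in neonates and 5 did not pass, with sums of 7850 and 6980 CPM against 10718 and 8534 CPM and Epas1 the most abundant. Without Epas1 the sums were 6282 and 5220 CPM in neonates and 6650 and 5552 CPM in adults, with the ages overlapping, and the median log2 fold change of the list was 0.13. Glial markers, 7 of them, split into 3 higher in adults, 2 in neonates and 2 that did not pass, and their sum was 1068 and 1926 CPM in neonates and 2017 and 2193 CPM in adults.

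Cell types and tissues that could enter the dissection were also measured. All 7 cell cycle genes were higher in neonates, with sums of 710 and 635 CPM against 253 and 252 CPM and Pcna the most abundant. Of 3 parathyroid markers tested, all were higher in neonates, 2 of them with 0 counts in both adult libraries, so that they passed the filter on low counts only through the neonatal libraries. The most abundant, Chga, had 1552 and 740 CPM in neonates and 848 and 723 CPM in adults, and overlapped by CPM. The sum of 3168 and 938 CPM in neonates and 848 and 723 CPM in adults consisted in adults of Chga, which glomus cells also express. Erythroid genes (4 of 4 higher in neonates, led by Hba-a2) summed to 6326 and 3695 CPM in neonates and 1576 and 1432 CPM in adults. Adipocyte markers summed to 163 and 221 CPM against 174 and 232 CPM, and without Fabp4 to 42.9 and 54.5 CPM against 72.9 and 95.3 CPM. Of 6 tested, 3 were higher in adults and 1 in neonates, with Fabp4 the most abundant. Cidec, among those higher in adults, passed the filter on low counts only through the adult libraries. Skeletal muscle genes summed to at most 25.2 CPM, led by Tnnt3, with 0 of 4 tested past the adjusted threshold in edgeR. Cartilage genes summed to 21.4 and 27.995 CPM in neonates and 10.6 and 12.3 CPM in adults. Of 4 tested, 1 was higher in neonates, 1 in adults and 2 did not pass. The cartilage collagen Col2a1 led them with 14.9 and 20.6 CPM in neonates and 1.30 and 2.95 CPM in adults, while Acan was higher in adults (-2.20, edgeR adjusted p = 0.0014), having passed the filter on low counts only through the adult libraries, and Matn1 was at 0 counts. The part of cartilage or of dividing cells in the level of Igfbp2 was not tested.

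The other genes of the pathway were taken from 8 lists drawn up by role, which hold 91 distinct genes beside the 9 above. Of these, 76 were tested. By the same edgeR threshold, 37 were higher in adults (48.7%) and 15 in neonates (19.7%), where 31.1% and 31.2% of all genes were. Their median log2 fold change was -0.33, against -0.0029 over all genes tested. With libraries scaled to their size alone, 49 were higher in adults and 9 in neonates, where 43.3% and 18.7% of all genes were. A fold change of 2 was reached by 13 toward adults and 3 toward neonates, together 21.1% of the 76, which is near the 20.8% of all genes. Of the 52 calls, 33 held under every alternative that gave the gene a value. The lists hold few genes, so their counts are a description.

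**Figure D4:**
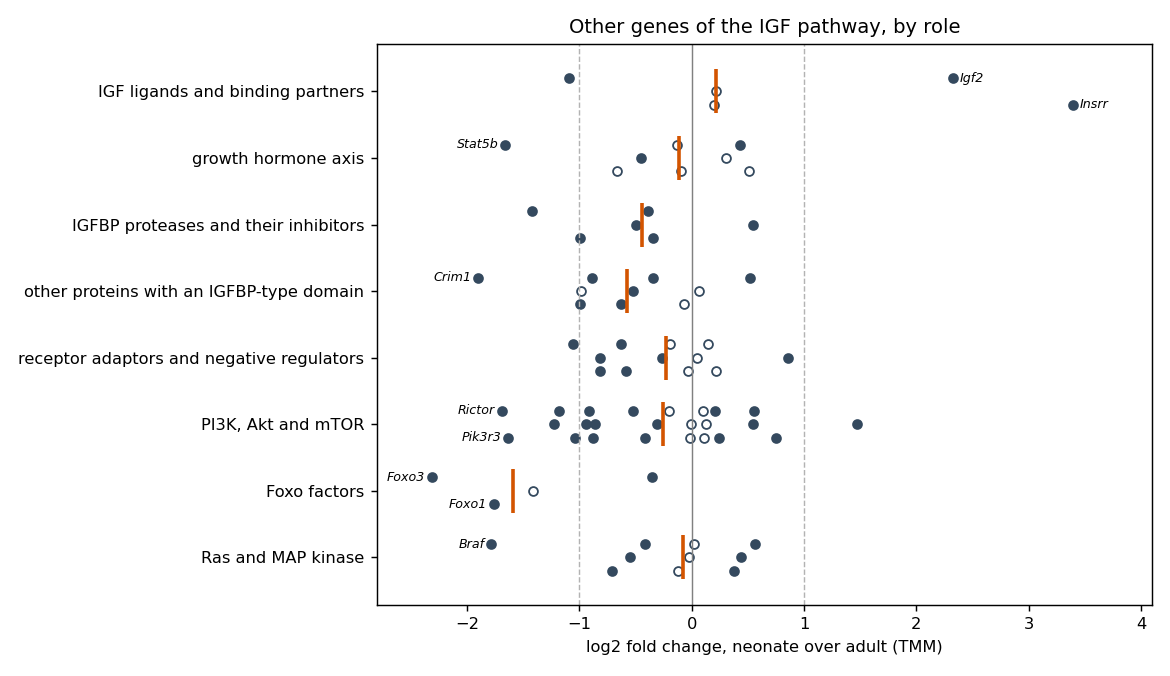
Log2 fold change of neonates over adults after TMM scaling (horizontal axis) for the genes tested in 8 lists (rows), with filled points past an adjusted p of 0.05, open points not past it, orange bars at the median of each list and dashed lines at 2-fold. The Foxo factors have the lowest median, at -1.59, and Insrr and Igf2 lie farthest toward neonates, at 3.39 and 2.33.

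Among ligands and receptors, 2 of 5 genes tested were higher in neonates and 1 in adults, where 31.2% and 31.1% of all genes were. Igf2, the fetal ligand, had 2742 and 2950 CPM in neonates and 682 and 664 CPM in adults, with no overlap. It was 5.01-fold higher in neonates (log2 fold change 2.33, standard error 0.10, edgeR adjusted p = 1.4e-06), and its counts are partly fractional. Igf2r had 109 and 107 CPM in neonates and 105 and 117 CPM in adults, and did not pass (0.20, edgeR adjusted p = 0.055). Insr, the insulin receptor, was close to Igf1r in direction. It had 14.3 and 17.7 CPM in neonates and 39.9 and 40.9 CPM in adults (-1.09, standard error 0.11, edgeR adjusted p = 5.3e-05). Ins1 and Ins2 were at or under the floor in all libraries, and Igfals, the third part of the Igfbp3 complex in blood, was at most 0.380 CPM.

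Insrr, the insulin receptor-related receptor, had 10.5 and 5.71 CPM in neonates and 0.874 and 0.965 CPM in adults. It was 10.5-fold higher in neonates (log2 fold change 3.39, standard error 0.37, edgeR adjusted p = 7.5e-05), with fractional counts, and it passed the filter on low counts only through the neonatal libraries. Markers of sympathetic neurons moved with it, 7 of 8 being higher in neonates and 1 not passing. Their sum was 1652 and 1393 CPM in neonates and 1139 and 946 CPM in adults, with Prph the most abundant. The part of these neurons in the level of Insrr was not tested.

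Of the growth hormone axis, 8 genes were tested, of which 2 were higher in adults, 1 in neonates and 5 did not pass. Of all genes tested, 31.1% were higher in adults and 31.2% in neonates. Ghr, the receptor, had 23.6 and 28.2 CPM in neonates and 30.5 and 36.6 CPM in adults, and did not pass (-0.13, edgeR adjusted p = 0.36). Stat5b, which carries the signal of that receptor to the nucleus, had 8.81 and 9.53 CPM in neonates and 30.2 and 38.5 CPM in adults (-1.66, standard error 0.14, edgeR adjusted p = 2.0e-05). Its near copy Stat5a was at -0.45 (edgeR adjusted p = 0.024), and the call was lost without neonate replicate 2 or either adult replicate. Both have fractional counts, so the split of reads between them is uncertain. Socs2, a feedback inhibitor of the receptor, was higher in neonates (0.43, edgeR adjusted p = 0.0068), a call lost without adult replicate 2 and with libraries scaled to their size alone.

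Of 13 proteases that cut binding proteins and their inhibitors, 6 were tested. Higher in adults were 5 and higher in neonates was 1, where 31.1% and 31.2% of all genes were. Pappa2, which cuts Igfbp3 and Igfbp5, had 7.90 and 6.49 CPM in neonates and 21.5 and 24.3 CPM in adults (-1.42, standard error 0.16, edgeR adjusted p = 8.7e-05). Htra1, a secreted serine protease, had 199 and 192 CPM in neonates and 475 and 449 CPM in adults (-0.99, standard error 0.086, edgeR adjusted p = 2.3e-05). Stc1, an inhibitor of pappalysins, was also higher in adults (-0.49, edgeR adjusted p = 0.014), a call lost without neonate replicate 2 or adult replicate 2. Htra3, another protease of the Htra family, was at -0.35 (edgeR adjusted p = 0.011), and without neonate replicate 1 its adjusted p was 0.054. Timp1, an inhibitor of matrix metalloproteases, was higher in neonates (0.55, edgeR adjusted p = 0.00043). Pappa itself was not tested, with 0.228 and 0.0779 CPM in neonates and 0.926 and 1.76 CPM in adults.

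Other secreted or membrane proteins with an IGFBP-type domain included 10 genes tested. Higher in adults were 6, higher in neonates was 1 and 3 did not pass, where 31.1% and 31.2% of all genes were higher. Crim1, a membrane protein that binds growth factors of the BMP family, had 5.60 and 6.39 CPM in neonates and 23.6 and 29.3 CPM in adults (-1.90, standard error 0.15, edgeR adjusted p = 1.7e-05). Htra1 and Htra3 are in this list too. Ccn3 was at -0.89 (edgeR adjusted p = 0.00015), and Esm1, made by endothelial cells, at 0.52 (edgeR adjusted p = 0.014), a call lost without adult replicate 1 and with libraries scaled to their size alone.

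Of 12 receptor adaptors and regulators tested, 6 were higher in adults, 1 in neonates and 5 did not pass. Among all genes tested these shares were 31.1% for adults and 31.2% for neonates. Irs1, an adaptor of both receptors, had 1.52 and 4.52 CPM in neonates and 6.94 and 7.88 CPM in adults. Its log2 fold change of -1.06 (standard error 0.41) passed narrowly (edgeR adjusted p = 0.0496). Without neonate replicate 1 it was -0.49 with an adjusted p of 0.13, and the call was also lost without either adult replicate, with RLE factors, with TMM factors that leave out mitochondrial and ribosomal protein genes, and with no filter on low counts. Irs2 did not pass (0.15, edgeR adjusted p = 0.27). Grb10, an imprinted inhibitor of both receptors, was the exception toward neonates, with 455 and 492 CPM against 304 and 316 CPM (0.86, standard error 0.082, edgeR adjusted p = 3.9e-05).

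In the PI3K, Akt and mTOR list, 12 of 24 genes tested were higher in adults, 6 in neonates and 6 did not pass. The shares of all genes tested were 31.1% higher in adults and 31.2% higher in neonates. Rictor, a core part of mTOR complex 2, had 5.78 and 5.19 CPM in neonates and 20.2 and 21.8 CPM in adults (-1.69, standard error 0.16, edgeR adjusted p = 3.1e-05). Pik3r3, a regulatory subunit of PI3K, had 8.38 and 7.84 CPM in neonates and 29.7 and 29.9 CPM in adults (-1.63, standard error 0.12, edgeR adjusted p = 1.2e-05). Toward neonates, Rps6kb2, a kinase of ribosomal protein S6, had 75.9 and 74.9 CPM against 30.1 and 34.4 CPM (1.47, standard error 0.099, edgeR adjusted p = 7.1e-06). The Akt genes did not move alike. Akt2 was higher in adults (-0.86), while Akt1 was at 0.24 (edgeR adjusted p = 0.021), a call lost with libraries scaled to their size alone and without neonate replicate 2 or either adult replicate.

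Of the Foxo factors, which Akt keeps out of the nucleus, 3 of 4 were higher in adults and 1 did not pass. The share of all genes tested that were higher in adults was 31.1%. Foxo3 had 4.23 and 3.17 CPM in neonates and 23.3 and 20.3 CPM in adults (-2.31, standard error 0.20, edgeR adjusted p = 2.2e-05). Foxo1 had 6.76 and 3.999 CPM in neonates and 20.2 and 23.3 CPM in adults (-1.76, standard error 0.24, edgeR adjusted p = 0.00025). Foxo4 was at -0.36 (edgeR adjusted p = 0.0079), a call lost without adult replicate 1, and Foxo6 had at most 1.38 CPM. The study had picked these factors from the same samples, so their direction is no independent evidence.

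Of 10 genes of the Ras and MAP kinase branch, 4 were higher in adults, 3 in neonates and 3 did not pass, near the 31.1% and 31.2% of all genes. Braf had 1.85 and 1.71 CPM in neonates and 7.44 and 7.11 CPM in adults (-1.78, standard error 0.26, edgeR adjusted p = 0.00034). Araf, a kinase of the same family as Braf, was higher in neonates (0.56, edgeR adjusted p = 0.00026), and the list's median of -0.075 was near that of all genes.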

How the data were processed

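The authors deposited estimated counts per gene. They trimmed the reads, mapped them with STAR to Rnor_6.0 and quantified them with Salmon (1.5.2 in the submitters' processing notes), with transcripts summed to genes and neither normalization nor filter. Transcript lengths were not used here. Libraries totalled 36286191 to 39476110 estimated counts.

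Counts were rounded and tested in R 4.3.3 with edgeR 4.0.16 by its quasi-likelihood method, with TMM and no covariates. Of 32883 genes, 664 annotated in RefSeq (GRCr8, by symbol or synonym) as other than protein-coding were removed, and a gene was tested if 2 or more libraries reached 1 CPM. p were adjusted by Benjamini and Hochberg over all 13843 genes. Standard errors are the log2 fold change over the root of F. The edgeR p-values and intervals rest on the spread between pooled libraries, moderated by what is shared over all genes. With 2 libraries an age, they do not measure the spread of a gene's own libraries alone. The fit was also run on simulated data with 200 of 13651 genes changed, and all 200 were called in the right direction. There far fewer genes changed than here, equally toward each age and with the same spread for all genes. The simulation therefore does not bear on the calls in these data.

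The members and the lists, 8 of pathway genes and 14 of markers, were chosen with earlier results of these data known. Named genes are all members, the genes of each pathway list with the largest changes among those called, other called genes, the nearest profiles of Igf1 and Igf1r, and each marker list's most abundant gene. Some genes that this rule names are not reported here. Igf2r, Ghr, Irs2, Pappa, Foxo6, Igfals, Th, Pth, Alb, Acan, Matn1 and Col2a1 were named after their values were seen, and the sequence motifs were chosen then too. Alternatives were DESeq2 1.42.0, limma-voom (limma 3.58.1), RLE factors, library size alone, TMM without mitochondrial and ribosomal protein genes, 2 other low-count filters, all biotypes, a replicate block, and each library left out with the genes tested kept.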

Additional observations from a re-analysis of the deposited data

How the results depend on the processing

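Igf1r, Igfbp2, Igfbp3, Igfbp5 and Igfbp6 kept their direction and their call under every alternative that gave a value. Igfbp2 has none with a mean of at least 5 CPM, which it does not reach. Igf1 turned to -0.027 with libraries scaled to their size alone, by the shift of -0.25 that this puts on all genes. Between 5 and 7 of the members passed an adjusted p of 0.05 when a library was left out, where 49.0% to 60.4% of all genes did. Over all genes, DEGs (2-fold and past the adjusted p) numbered 1063 toward neonates and 1822 toward adults. Library size alone gave 704 toward neonates and 2550 toward adults, and a mean of at least 5 CPM, with fewer genes tested, gave 654 and 1169. The share of calls that were higher in neonates fell with library size alone from 50.1% to 30.1% for all genes, from 28.8% to 15.5% for the pathway genes and from 28.6% to 16.7% for the members, and pathway DEGs went from 16 to 26. With the replicate number as a block, 7 members and 55 pathway genes passed, against 7 and 52, while the share of all genes went from 62.3% to 65.7%, and Igf1 was at 0.22. Deviations of same-numbered libraries correlated at -0.015 over genes, so the numbers were not taken as pairs. Depth limits Igfbp1, Igfbp2 in adults and Igf1r in neonates, at no more than 88 counts each.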
